A study of Homo sapiens with 14 samples.

Results

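Fibroblast growth factor (FGF) ligands, their receptors and the genes that answer FGF signalling were followed through endodermal differentiation of human embryonic stem cells (hESC) and in single nuclei of gastruloids. The 10 genes FGF2, FGF4, FGF8, FGF17, FGFR1, FGFR4, SPRY2, SPRY4, DUSP6 and ETV4, were chosen by name, out of the 63677 genes in the bulk tables and the 17493 genes in the nucleus table. All 10 were measured in both tables. FGF17 was nearly silent in hESC and foregut and was the most abundant of the 10 genes per kilobase in endoderm. FGF8 and FGF4 had the same on-and-off order at lower levels, whereas FGF2 was highest in hESC. The feedback genes SPRY2, SPRY4, DUSP6 and ETV4 were lowest in foregut. In gastruloid nuclei FGF17 was highest where SOX2 was found together with TBXT or alone of the 4 marker genes. FGF17 was lower in SOX2 positive nuclei without TBXT as a whole, and low in nuclei with TBXT alone. FGF8 was well above its lowest level both with SOX2 alone and with TBXT alone.

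FGF ligands are secreted proteins that bind receptor tyrosine kinases of the FGFR family together with a co-receptor, and the activated receptor passes the signal through RAS and RAF to the kinases MEK and ERK. ERK switches on a set of response genes, among them the ETS factor ETV4 and inhibitors that damp the same pathway, such as the Sprouty proteins and the ERK phosphatase DUSP6. FGF signals are known for their part in keeping hESC in culture, in cell movement through the primitive streak and in the growth of the body axis, where FGF8, FGF17 and FGF4 are expressed near the streak and tailbud.

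The series held 12 bulk RNA-seq libraries and 1 paired RNA and ATAC preparation of gastruloid nuclei, all from H9, a human embryonic stem cell line. There were 2 libraries of undifferentiated hESC. Endoderm, made in 3 days with Activin A at 100 ng/ml and the GSK-3 inhibitor CHIR-99021 at 5 µM on the first day and 0.5 µM on the second, was sampled as 3 libraries from cells that expressed the repressor fusion dCAS9-KRAB without sgRNA and 3 from cells that also carried an sgRNA against LTR5 retroviral repeats (LTR5 CRISPRi). Foregut, 3 days of endoderm followed by 3 days of foregut medium, gave 2 libraries titled as control and 2 titled as CRISPRi. The gastruloids were aggregates of 800 cells per well treated with CHIR-99021 at 3 µM and harvested at 72 h. The labels of the hESC libraries name no transgene, so endoderm without sgRNA differed from hESC by dCAS9-KRAB as well as by stage. The dCAS9-KRAB vector was delivered by lentivirus and the cells were kept under selection, and the sources used here do not call them 1 clone. The status and medium fields of the foregut libraries repeat those of hESC for the control and of endoderm without sgRNA for the CRISPRi samples, so their groups were taken from the titles. The foregut libraries were also deposited in a table of their own, and table and stage cannot be told apart. The study's methods call the RNA-seq replicates biologically independent, while the labels do not say what separated them, so the p-values measure the spread between these libraries, whatever its source. The transcripts of the LTR5 repeats were not analysed here.

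Library depth ran from 11583063 to 37152434 reads in genes, and 3 reads corresponded to between 0.0770 and 0.252 CPM normalised by TMM (trimmed mean of M values). Mitochondrial genes took 16.9 to 25.5% of reads in hESC, 8.30 to 14.4% in the 6 endoderm libraries and 17.6 to 34.7% in the 4 foregut libraries. Endoderm markers bore out the endoderm label, with the summed CPM of 7 markers at 22.6 to 35.6 in hESC and 5364 to 5899 in endoderm without sgRNA. POU5F1, a pluripotency factor, was at 652 to 826 CPM in that endoderm, against 291 and 575 CPM in hESC. Of 6 pluripotency markers, POU5F1 among them, 3 were called lower in endoderm than in hESC, 1 higher and 2 were not called (edgeR). Mean SOX2 was 158 CPM in hESC and 23.2 CPM in endoderm, and mean DPPA4 456 and 107 CPM. TDGF1 went the other way, with means of 307 and 637 CPM. A list of 7 mesoderm markers summed to 70.8 to 74.5 CPM in hESC and 140 to 372 CPM in endoderm without sgRNA, and 4 of the 6 that could be tested were called higher, among them PDGFRA at 50.3 to 181 CPM against 0.649 and 0.822 and HAND1 at 11.7 to 25.1 CPM against 0. Of the same list MEOX1 was at 0 in all 3 of these endoderm libraries and MSGN1 in 2 of 3. The part of these mesoderm markers in the members' values was not tested. In foregut control libraries FOXA1 stood at 231 and 184 CPM, against 3.54 to 7.73 CPM in the hESC and endoderm control libraries. POU5F1 stood at 2.53 and 4.33 CPM, against 291 to 826 CPM in those earlier stages. Of 5 foregut markers tested between foregut and endoderm, 1 was called higher and 4 were not called (edgeR). HNF4A had a mean of 31.8 CPM in foregut control against 14.5 CPM in endoderm without sgRNA. HHEX went the other way, with means of 33.4 against 50.4 CPM, as did PROX1, at 0.898 to 3.57 against 3.13 to 15.5 CPM. ONECUT1 stayed under 4 CPM in hESC, endoderm and foregut control. Of the foregut control libraries' other markers, SOX2 stood at 191 and 142 CPM, FOXJ1 at 219 to 486 CPM and CDX2 at 12.3 to 24.5 CPM. In endoderm without sgRNA they were at 15.5 to 29.1, 0.625 to 1.40 and 0.138 to 0.500 CPM. Of 6 axial mesoderm markers tested, 3 were called higher and 2 lower in foregut than in endoderm (edgeR). Of 6 neuromesodermal or neural markers 2 were called higher and 2 lower. In bulk RNA a smaller share of cells that express a gene and less RNA per cell cannot be told apart.

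Every member had accessible chromatin in the gastruloid nuclei, which was also true of 93.3% of 20037 protein-coding genes by the same measure, at least 1 ATAC peak in the gene or within 10 kb of it. The number of such peaks ranged from 3 at FGF4 to 13 at FGFR1, against a median of 5 over all genes. FGF17 had 4 peaks, FGF8 and FGF2 9 each, SPRY2 and DUSP6 5 each, SPRY4 6, FGFR4 7 and ETV4 11. RefSeq promoter windows in GRCh38.p14, 250 bases before a start site, were at hand for 5 of the 10 members, 8 windows in all. Of these, 5 overlapped a peak, against 57.8% of all 35116 promoters. The windows shown, 1 each of DUSP6, SPRY2 and FGFR4, are the 3 that lay outside the span of their gene. Each of them also lay whole inside a peak, so the letters below are sequence that was open in these nuclei. Each is written 5′ to 3′ on the strand of its gene, and capitals mark CCGGAA and AGGAAG, 2 core forms of the motif bound by ETS factors such as ETV4, searched on both strands, so that CTTCCT marks AGGAAG on the other strand. The first occurs in 14.5% and the second in 28.7% of all promoters of this length, and 39.3% hold either.
DUSP6 (chr12:89352502-89352751, minus strand): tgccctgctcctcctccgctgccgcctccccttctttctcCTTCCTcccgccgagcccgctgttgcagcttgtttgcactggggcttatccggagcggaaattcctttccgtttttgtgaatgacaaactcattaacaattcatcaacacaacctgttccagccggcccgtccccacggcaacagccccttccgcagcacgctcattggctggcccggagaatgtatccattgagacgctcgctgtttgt
SPRY2 (chr13:80341127-80341376, minus strand): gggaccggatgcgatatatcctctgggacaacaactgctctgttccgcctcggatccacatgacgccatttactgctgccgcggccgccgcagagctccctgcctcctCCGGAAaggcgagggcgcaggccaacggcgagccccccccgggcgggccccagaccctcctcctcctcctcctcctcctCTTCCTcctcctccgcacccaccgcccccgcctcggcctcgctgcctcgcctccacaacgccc
FGFR4 (chr5:177086665-177086914, plus strand): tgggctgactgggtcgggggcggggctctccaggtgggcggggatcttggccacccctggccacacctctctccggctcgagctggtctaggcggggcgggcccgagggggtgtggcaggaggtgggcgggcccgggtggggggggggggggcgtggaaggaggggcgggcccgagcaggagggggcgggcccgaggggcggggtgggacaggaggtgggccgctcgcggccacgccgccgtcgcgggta
The DUSP6 window held 1 match, AGGAAG on the other strand 210 bases before the start site. The SPRY2 window held CCGGAA 142 bases and AGGAAG, on the other strand, 63 bases before the start. This FGFR4 window held neither. Of the windows not shown, another of FGFR4 (chr5:177089300-177089549), which also overlapped a peak, held AGGAAG at 2 places, and 2 others of SPRY2, outside peaks, held it at 1 place each. The matches are descriptions of sequence, and no binding was measured.

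In the genome build of the bulk data, hg19 (GRCh37), the 4 ligands lie on 4 chromosomes. FGF2 is at chr4:123747837-123819391 on the plus strand, FGF4 at chr11:69585790-69590109 and FGF8 at chr10:103529866-103540128 on the minus strand, and FGF17 at chr8:21899909-21906320 on the plus strand. The receptors FGFR1 and FGFR4 are at chr8:38257733-38326352 (minus) and chr5:176513906-176525145 (plus). SPRY2 is at chr13:80910111-80915261, SPRY4 at chr5:141689992-141706020, DUSP6 at chr12:89741012-89746278 and ETV4 at chr17:41605212-41656988, each on the minus strand. FGF2 shares 804 of its 6801 exonic bases, 11.8%, with the antisense gene NUDT6. The strand setting of the authors' counting is not given in the sources used here, so reads from that stretch cannot be assigned with certainty. FGFR1 shares 387 exonic bases with an antisense long non-coding RNA and 138 with LETM2, and ETV4 shares 68 with DHX8.

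The first comparison asked how the genes differed between hESC and endoderm without sgRNA. FGF17, FGF8 and FGF4 rose, FGF2 and DUSP6 fell, and the other 5 members were not called. A gene was called when its fold change exceeded 2 and its adjusted p was under 0.05 in edgeR's quasi-likelihood test with Benjamini-Hochberg adjustment. In this comparison 26% of the 20818 genes tested were called, and 5 of the 10 members were, 3 higher and 2 lower. The second asked the same of foregut against endoderm without sgRNA, where 29% of 21466 genes were called. All 10 members were called there, 9 lower and FGFR4 higher in foregut, with a median log2 fold change of -3.95 over the members against -0.09 over all genes tested. Both comparisons share the 3 endoderm libraries.

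**Figure D1:**
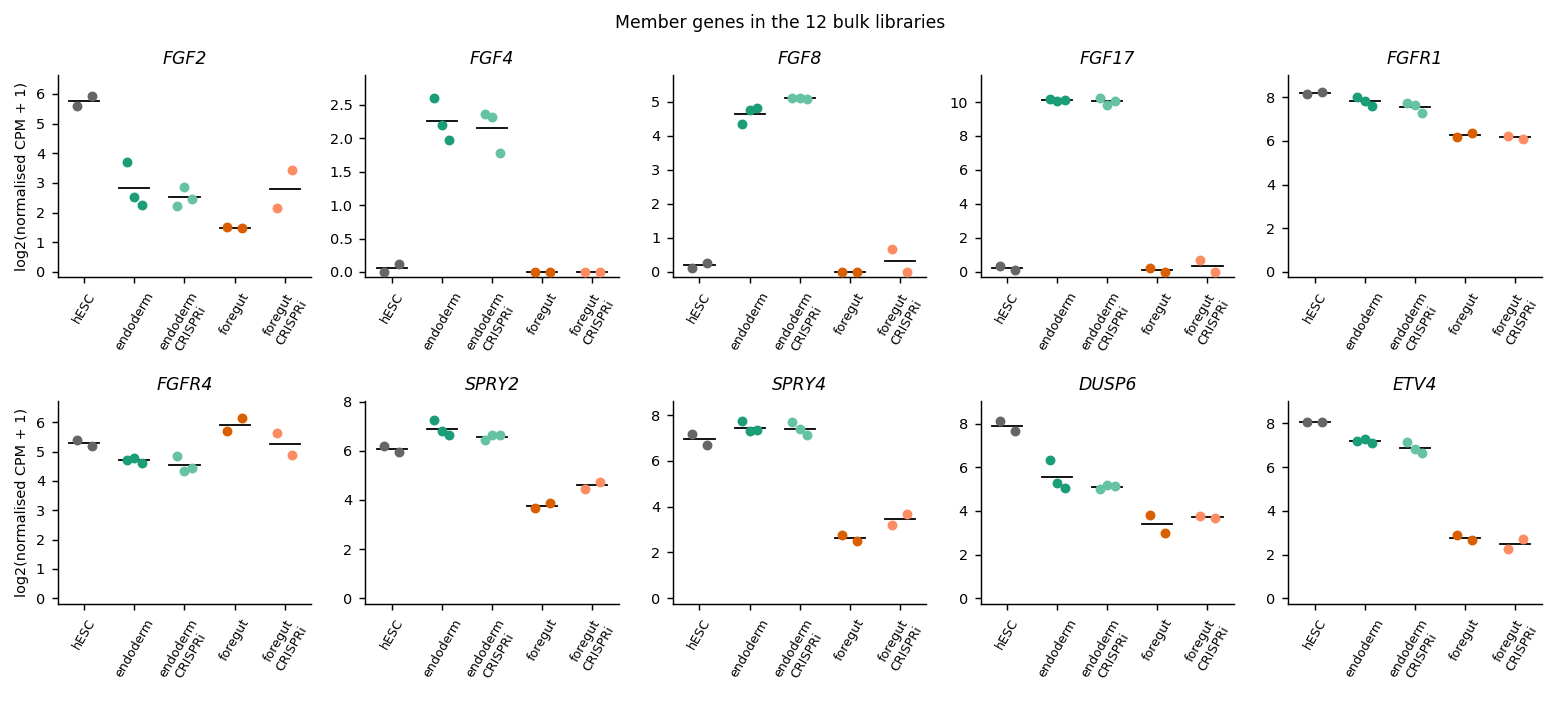
Normalised CPM of the 10 genes in each of the 12 bulk libraries, as log2(CPM + 1) on the vertical axis, with the 5 groups along the horizontal axis. Points are libraries and bars the group mean, and each gene has its own vertical scale. FGF4, FGF8 and FGF17 are raised in the 6 endoderm libraries alone, FGF2 is highest in hESC, and ETV4 and SPRY4 are lowest in foregut.

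FGF17, a ligand of the FGF8 subfamily, showed the widest range of the 10 genes. It stood at 0.26 and 0.08 CPM in the 2 hESC libraries, at 1135, 1055 and 1106 CPM in endoderm without sgRNA and at 0.16 and 0 CPM in foregut control. Endoderm libraries lay close together and far from both other stages. The counts behind this were 8 reads in hESC, 63385 in endoderm and 5 in foregut. From these counts, FGF17 was 6506-fold higher in endoderm than in hESC (95% counting interval 3302 to 15071) and 15310-fold lower in foregut than in endoderm (6560 to 47154). The intervals here and below are exact for counts and cover counting error only. The fitted log2 fold change was 12.65 (SE 0.37) from hESC to endoderm, and 13.63 without hESC replicate 1 and 12.04 without replicate 2. All 5 foregut reads lay in control replicate 1, so that without it the group held none, and the fitted log2 fold change from endoderm to foregut ran from -17.71 without replicate 1 to -12.61 without replicate 2. Per kilobase of exon FGF17 reached 334 CPM in endoderm, ahead of ETV4 at 41.5, the next of the 10.

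FGF8, the ligand that gives this subfamily its name, followed the same order at a lower level. It had 0.09 and 0.21 CPM in hESC, 19.5, 26.0 and 27.1 CPM in endoderm without sgRNA, and no read in either foregut control library. No endoderm library overlapped those of the other stages. By counts it was 163-fold higher in endoderm than in hESC (78.9 to 406, from 1389 and 7 reads). The fitted log2 fold change of FGF8, 7.34, was 8.05 without hESC replicate 2. Against a floor of 3 reads over the foregut control group, FGF8 was at least 559-fold lower in foregut than in endoderm. Per kilobase FGF8 stood at 16.8 CPM in endoderm.

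FGF4, a ligand expressed early in the embryo, was the faintest of the 4. It was absent from one hESC library and at 0.08 CPM in the other, at 5.08, 3.59 and 2.94 CPM in endoderm without sgRNA, and without a read in any of the 4 foregut libraries. By counts it was 93.2-fold higher in endoderm than in hESC (25.5 to 774, from 227 and 2 reads). Both hESC reads lay in replicate 2, and the fitted log2 fold change of FGF4, 6.37, was 5.49 without hESC replicate 1 and 9.30 without replicate 2. FGF4 was at least 91.4-fold lower in foregut control than in endoderm against the floor of 3 reads over the group. Its 1.22 CPM per kilobase in endoderm was close to FGF2's 1.01.

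FGF2, the ligand added to many media for human pluripotent cells, ran the other way. Its 47.2 and 60.2 CPM in hESC compared with 12.1, 4.79 and 3.75 CPM in endoderm without sgRNA and 1.85 and 1.77 CPM in foregut control. The hESC libraries were all above the endoderm libraries, and these above foregut. FGF2 fell from hESC to endoderm by 2.92 on the log2 scale (SE 0.35, adjusted p 9.64e-06, edgeR), and by 3.61 without endoderm replicate 1. From endoderm to foregut it fell by 1.93 (SE 0.55, adjusted p 0.0248, edgeR). That second call was lost without endoderm replicate 1 (log2 fold change -1.19, adjusted p 0.0797, edgeR) and without foregut replicate 2 (-1.83, adjusted p 0.0671, edgeR).

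Endoderm replicate 1 stood apart from replicates 2 and 3 for several members. It held the highest FGF2 of the 3 and the highest DUSP6, at 78.7 CPM against 37.8 and 32.1 CPM, and the highest SPRY2, at 152 CPM against 110 and 97.8 CPM. In the same library HNF4A, a later endoderm factor, stood at 4.34 CPM against 21.5 and 17.6 CPM, and the mesoderm-expressed receptors PDGFRA and KDR at 181 and 151 CPM against 50.3 and 87.9 CPM and 67.3 and 75.9 CPM. Other markers were mixed. SOX17, GATA6 and CXCR4 were highest of the 3 libraries in replicate 1, at 284, 432 and 362 CPM. FOXA2, GATA4 and EOMES were lowest there, at 113, 185 and 561 CPM, and CER1 lay between. The mesoderm marker HAND1 was highest in replicate 3, at 25.1 CPM. The part of these markers in the members' values was not tested.

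The receptors changed less than FGF4, FGF8 and FGF17. FGFR1, the main FGF receptor of pluripotent cells, had 283 and 305 CPM in hESC, 257, 227 and 194 CPM in endoderm without sgRNA and 70.4 and 80.5 CPM in foregut control. Its difference between hESC and endoderm did not pass the test (log2 fold change -0.35, SE 0.18, adjusted p 0.146, edgeR), although the libraries did not overlap. From endoderm to foregut FGFR1 fell by 1.58 on the log2 scale (SE 0.22). FGFR4, a receptor known from liver and endoderm, was the only member higher in foregut. It had 40.8 and 35.2 CPM in hESC, 25.4, 26.3 and 23.7 CPM in endoderm and 51.1 and 69.7 CPM in foregut control, a rise from endoderm to foregut of 1.26 on the log2 scale (SE 0.23, adjusted p 0.00267, edgeR). Between hESC and endoderm FGFR4 had an adjusted p of 0.0304 (edgeR) at a log2 fold change of -0.56, under the fold limit.

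The Sprouty genes encode inhibitors that act between the receptor and RAF. SPRY2 had 72.2 and 61.03 CPM in hESC, 152, 110 and 97.8 CPM in endoderm without sgRNA and 11.6 and 13.6 CPM in foregut control. SPRY4 had 142 and 104 CPM in hESC, 211, 157 and 162 CPM in endoderm and 5.72 and 4.72 CPM in foregut control. Both were at their highest in endoderm and at their lowest in foregut, and for both the 3 stages did not overlap. The difference between hESC and endoderm stayed under the fold limit for both, at log2 fold changes of 0.88 (SE 0.21, adjusted p 0.00407, edgeR) for SPRY2 and 0.55 (SE 0.21, adjusted p 0.0470, edgeR) for SPRY4. Without hESC replicate 1 SPRY2 was called (1.01, adjusted p 0.0400, edgeR). From endoderm to foregut SPRY2 fell by 3.25 (SE 0.28) and SPRY4 by 5.08 (SE 0.28) on the log2 scale.

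DUSP6, the cytoplasmic phosphatase of ERK, was lower in endoderm, unlike the Sprouty genes. It had 276 and 201 CPM in hESC, 78.7, 37.8 and 32.1 CPM in endoderm without sgRNA and 13.2 and 6.85 CPM in foregut control. DUSP6 fell by 2.24 (SE 0.30, adjusted p 2.51e-05, edgeR) from hESC to endoderm and by 2.31 (SE 0.46, adjusted p 0.00463, edgeR) from endoderm to foregut on the log2 scale. ETV4, a transcription factor switched on by ERK, had 262 and 268 CPM in hESC, 145, 155 and 138 CPM in endoderm and 6.40 and 5.26 CPM in foregut control. Its log2 fold change was -0.83 (SE 0.17, adjusted p 0.00117, edgeR) from hESC to endoderm, under the fold limit, and it fell by 4.65 (SE 0.25) from endoderm to foregut. The 4 feedback and response members thus did not move together in endoderm. Per kilobase the order in hESC was ETV4 at 75.4 CPM, DUSP6 at 61.8, SPRY2 at 20.7 and SPRY4 at 18.8, the last 2 being closer than the spread between their libraries.

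Genes of the rest of the pathway were read from fixed lists. Of 14 other FGF ligands, 10 could be tested between endoderm and hESC, and 2 rose and 1 fell. FGF18 rose by 2.88 and FGF10 by 1.91 on the log2 scale, while FGF9 fell by 2.70, all 3 at or below 4 CPM in every library of the 2 stages. Of 5 other receptors and co-receptors, 3 were tested and FGFRL1, a receptor without a kinase domain, rose by 1.82. Of the 16 genes that relay the signal from receptor to ERK, FRS3, an adaptor, rose by 2.26 and MAP2K1, the kinase MEK1, rose by 2.17, and the other 14 were not called. Of 10 other feedback inhibitors, the nuclear ERK phosphatases DUSP4 and DUSP5 rose by 3.51 and 1.67, in contrast to DUSP6. Of 10 other response genes 2 rose and 4 fell, led by IER3, which rose by 3.02, and by the immediate early genes EGR1 and FOS, which fell by 2.64 and 1.92. The medians of the 5 lists were 0.38, 0.94, -0.00, 0.54 and -0.68, in the order given, against 0.04 over all genes tested.

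Between endoderm and foregut, 7 of 10 other feedback inhibitors fell and 1 rose. IL17RD, a membrane inhibitor of FGF receptors, fell by 4.56 on the log2 scale, from 154 to 215 CPM in endoderm without sgRNA to 8.35 and 6.95 CPM in foregut control. DUSP9, another ERK phosphatase, rose by 4.55. SPRED3, a Sprouty-related inhibitor, had the widest fitted change of the list, on 2 to 12 reads in each endoderm library and none in foregut. Of 10 other ligands tested, FGF19 fell by 4.15, and FGF10 also fell, from 2.21 to 3.94 CPM in endoderm to no read in foregut. No other receptor was called among the 4 tested (edgeR). Of the 16 relay genes 4 fell, among them MAP2K1 by 3.24 and BRAF by 1.14. The 10 other response genes were split, 4 higher and 4 lower, with MYC lower by 6.08 and the ETV4 relative ETV5 lower by 5.15, and EGR1 higher by 4.73. The list medians were -2.17 for the feedback inhibitors, -2.87 for the ligands, 0.24 for the receptors, -0.71 for the relay genes and 0.09 for the response genes, against -0.09 over all genes. Mitochondrial reads, 8.30 to 14.4% in endoderm without sgRNA and 17.6 to 29.0% in foregut control, differed along with stage, and their part in these results was not tested.

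Per kilobase of exon, the order of the 10 genes changed with stage. In hESC ETV4 and DUSP6 led at 75.4 ± 1.13 and 61.8 ± 13.7 CPM per kilobase (SD, n = 2), and FGFR4 and FGF2 at 7.90 ± 0.819 and 7.89 ± 1.35 could not be told apart. In endoderm without sgRNA FGF17 led at 334 ± 12.4 CPM per kilobase (SD, n = 3), and was followed by ETV4 at 41.5 ± 2.53 and SPRY2 at 37.3 ± 8.79, whose libraries overlapped each other. FGFR1 at 13.1 ± 1.84 and DUSP6 at 12.8 ± 6.59 overlapped too, as did FGF4 and FGF2. In foregut control FGFR4 led at 12.6 ± 2.73 CPM per kilobase (SD, n = 2). FGFR1 at 4.39 ± 0.416 and SPRY2 at 3.92 ± 0.434, whose libraries overlapped, came next. SPRY4 stood at 0.796 ± 0.107 and FGF2 at 0.266 ± 0.00842. Lengths were all exonic bases annotated for a gene, 17201 for FGFR1 and 4810 for FGFR4, and the order rests on that choice. Not divided by length, FGFR1 had the highest mean CPM of the 10 in hESC and in foregut control. Its means were 294 CPM, against 265 for ETV4, and 75.5 CPM, against 60.4 for FGFR4.

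**Figure D2:**
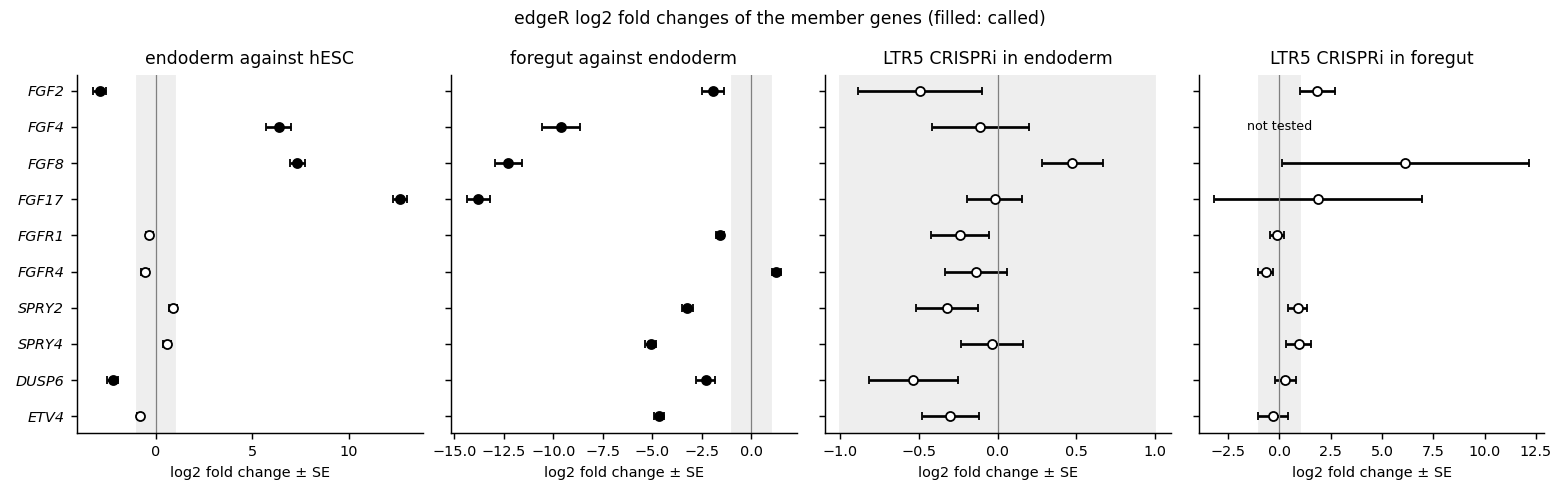
Log2 fold changes of the 10 genes on the horizontal axis, with bars for 1 SE. The comparisons of stage and of LTR5 CRISPRi in endoderm and in foregut have 1 panel each. The difference of the CRISPRi effects between foregut and endoderm is not drawn. Filled points were called, the grey band marks folds under 2, and the horizontal scale differs between panels. FGF4 could not be tested for CRISPRi in foregut. Fitted values for genes without reads in a group (FGF4 and FGF8 in foregut, FGF8 for CRISPRi in foregut) depend on a prior count. The value of FGF17 for CRISPRi in foregut rests on 17 reads with CRISPRi and 5 in control. Called points appear only in the panels of stage, 5 in endoderm against hESC and 10 in foregut against endoderm.

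**Figure D3:**
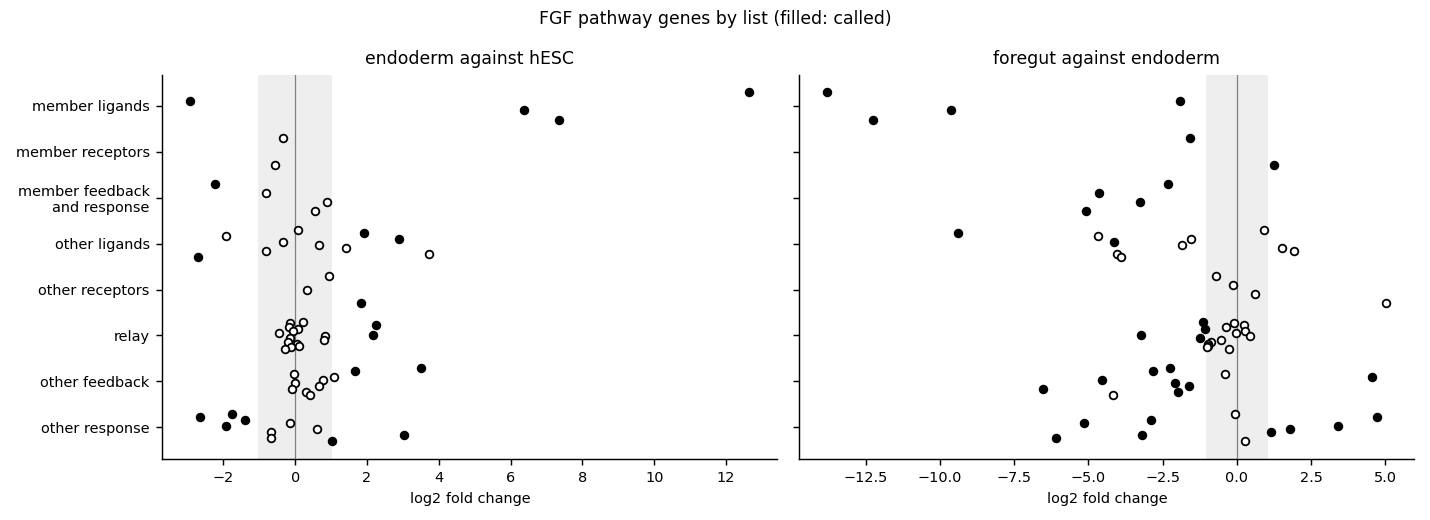
Log2 fold changes of the members and of the other pathway genes by list, each point a gene, filled where called. Panels are endoderm against hESC and foregut against endoderm, and the member lists are the top rows. In foregut 7 of 10 other feedback inhibitors lie on the lower side as called points, with DUSP9 on the higher side, and 4 other response genes are called on each side.

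The next comparison asked whether repression of LTR5 changed the genes in endoderm. None of the 10 members was called (edgeR), where 0.0343% of 20407 genes were, 7 genes. At an unadjusted p under 0.05 there was 1 member, FGF8, and 1057 genes in all, and DESeq2 and limma voom called none of the members either. FGF8 had 33.4, 33.6 and 32.4 CPM with LTR5 CRISPRi against 19.5, 26.0 and 27.1 CPM without sgRNA. The groups did not overlap, yet the log2 fold change of 0.48 (interval of 2 SE 0.09 to 0.86) had an adjusted p of 0.859 (edgeR). FGF17 had 1212, 911 and 1085 CPM with CRISPRi, around the control values. Its log2 fold change was -0.02, with an interval of 2 SE from -0.37 to 0.33, inside the fold limit of 2. FGF4 at 4.15, 3.97 and 2.44 CPM and FGF2 at 3.63, 6.21 and 4.54 CPM overlapped their controls, with log2 fold changes of -0.11 and -0.49. DUSP6 had 31.3, 35.0 and 34.4 CPM, and its log2 fold change of -0.54 had an interval of -1.10 to 0.03, with the control mean raised by replicate 1. The intervals of FGFR1, FGFR4, SPRY2, SPRY4 and ETV4 all held 0 and all lay within 1 log2 unit of it. The log2 fold changes of these 5 were -0.24, -0.14, -0.32, -0.04 and -0.30. Without control replicate 1 the log2 fold changes of FGF2, FGF4, FGF17 and SPRY4 changed sign, to 0.20, 0.15, 0.02 and 0.12, and none was called (edgeR).

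In foregut, LTR5 CRISPRi against control called none of the 9 members that could be tested (edgeR), where 0.165% of 20044 genes were called. At an unadjusted p under 0.05 there were 2 members, FGF2 and SPRY2, and 699 genes in all, and DESeq2 and limma voom called no member. FGF2 had 3.41 and 9.74 CPM with CRISPRi against 1.85 and 1.77 CPM in control, a log2 fold change of 1.85 (adjusted p 0.9996, edgeR). The 2 CRISPRi libraries were both above control but far apart, and without CRISPRi replicate 1 the gene was called (2.43, adjusted p 0.0275, edgeR). In that fit the lone CRISPRi library is assumed to vary as the controls do. SPRY2 had 20.8 and 25.9 CPM with CRISPRi against 11.6 and 13.6 CPM (log2 fold change 0.88, interval of 2 SE -0.02 to 1.78), and SPRY4 8.20 and 11.9 CPM against 5.72 and 4.72 CPM (0.94, -0.28 to 2.15). For both Sprouty genes the intervals reached 0. Their groups did not overlap, nor did those of FGF2 and FGFR4. How often 2 against 2 libraries separate over all genes was not counted. FGFR4 had 48.3 and 28.4 CPM against 51.1 and 69.7 CPM (-0.66, -1.39 to 0.07). FGFR1, DUSP6 and ETV4 differed by -0.10, 0.28 and -0.32 on the log2 scale.

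In foregut with CRISPRi, the traces of FGF8 and FGF17 came from replicate 1, which held 0.58 CPM of FGF8 and 0.62 CPM of FGF17, while replicate 2 held neither. The 16 FGF8 reads against none in control made FGF8 at least 7.38-fold higher against a floor of 3 reads over the group. The 17 FGF17 reads against 5, all of control replicate 1, made a ratio of 4.70 (1.67 to 16.3). Both ratios compare reads of these libraries and not the conditions, since replicate 2 had none. No read of FGF4 was seen in the 4 foregut libraries.

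Whether the effect of LTR5 CRISPRi differed between foregut and endoderm was tested as an interaction over those 10 libraries. None of the 10 members was called (edgeR), where 0.194% of 22708 genes were, and FGF4, without a read in foregut, gave no usable estimate. At an unadjusted p under 0.05 there were 4 members, FGF2, FGF8, SPRY2 and SPRY4, and 1870 genes in all. The differences of the 2 log2 fold changes were 2.34 for FGF2 (adjusted p 0.467, edgeR), 1.20 for SPRY2 (adjusted p 0.297, edgeR) and 0.96 for SPRY4 (adjusted p 0.515, edgeR). DESeq2 called SPRY2 (1.21, adjusted p 0.0443) and limma voom no member. FGF2 was called without foregut CRISPRi replicate 1 (2.94, adjusted p 0.0379, edgeR), and FGF8 without foregut CRISPRi replicate 2 (adjusted p 0.0203, edgeR), each then resting on 1 foregut CRISPRi library.

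As a description of likeness, the 13816 genes whose mean reached 1 CPM were ranked by the Pearson r of their log2 CPM with each ligand over the 12 libraries. The closest to FGF17 were RXRG at 0.995, ITGA9 at 0.993 and GREB1 at 0.989, and to FGF8 RXRG at 0.995, KCNJ5 at 0.990 and RFPL2 at 0.988. ASB5, EVX1 and HSP90B1 were closest to FGF4 at 0.994, 0.994 and 0.993, and RRN3, LRP11 and USP44 to FGF2 at 0.964, 0.962 and 0.960. These values mainly follow stage, which all 12 points share.

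The gastruloid nuclei placed the members among the cells of an axis-forming culture. Of 3646 nuclei, 3422 passed filters (1000 UMIs, 200 genes, at most 25% mitochondrial UMIs), with a median of 16302 UMIs and no barcode repeated. A nucleus was positive for a marker gene when it held at least 1 UMI of it. A single UMI made 51.3% of the TBXT, 51.6% of the SOX2 and 51.2% of the TBX6 positive nuclei and 18.8% of the PAX3 positive nuclei, and the part of free RNA in these calls was not tested. TBXT, the notochord and streak factor, was found in 1286 nuclei, SOX2, of neural and axial progenitors, in 1112, TBX6, of presomitic mesoderm, in 810, and PAX3, of somite and dorsal neural tissue, in 2247. The classes overlapped widely, as 41.4% of TBXT positive nuclei were also SOX2 positive and 54.5% PAX3 positive, so nuclei with UMIs of only 1 of the 4 genes were read beside them. There were 231 with TBXT only, 109 with SOX2 only, 140 with TBX6 only and 962 with PAX3 only, of median depth 17731, 15271, 15629 and 13890 UMIs. TBXT only nuclei carried the notochord genes CHRD at 6.18, NOTO at 2.53 and SHH at 1.32 UMIs per 10000, against 0.082, 0.088 and 0.011 in PAX3 only nuclei. TBX6 only nuclei carried DLL3 at 7.64 and MSGN1 at 0.437, and PAX3 only nuclei TWIST1 at 1.09 and MEOX2 at 0.929. SOX2 only nuclei had 0.225 of NKX1-2 and 0.071 of SOX3. For comparison, NKX1-2 and SOX3 stood at 0.108 and 0.053 over all TBXT positive and at 0.156 and 0.081 over all SOX2 positive nuclei. CDX2, of the same marker list, was at 0.588 and 0.591 in these 2 classes. Over all TBXT positive nuclei DLL3 stood at 1.85, MSGN1 at 0.100, TWIST1 at 0.428 and MEOX2 at 0.242. With 1 preparation there is no test between classes, and the intervals below cover counting error only.

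FGF17 in nuclei was concentrated in SOX2 positive classes. Its level was 1.49 UMIs per 10000 in TBXT positive, 1.97 in SOX2 positive, 1.34 in TBX6 positive and 1.09 in PAX3 positive nuclei. Among nuclei with only 1 marker, FGF17 stood at 2.29 (2.07 to 2.53) with SOX2 only, 1.01 (0.886 to 1.16) with TBX6 only, 0.218 (0.175 to 0.269) with TBXT only and 0.118 (0.100 to 0.137) with PAX3 only. Where TBXT and SOX2 were found together FGF17 reached 2.44. SOX2 positive nuclei without TBXT, whichever other markers they held, had 1.39, and TBXT positive nuclei without SOX2 had 0.629. The level of FGF17 with SOX2 only was 10.5 times that with TBXT only (8.30 to 13.4). It was 19.5 times that with PAX3 only (16.2 to 23.6). Between the wider classes, SOX2 positive without TBXT and TBXT positive without SOX2, the FGF17 ratio was 2.21 (2.03 to 2.41). One nucleus held 17.2% of the FGF17 UMIs with TBXT only, 10.1% with SOX2 only, 7.17% with TBX6 only and 9.15% with PAX3 only.

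FGF8 in nuclei had a different order, with TBXT only nuclei well above those with PAX3 only. It stood at 0.813 UMIs per 10000 in TBXT positive, 0.976 in SOX2 positive, 0.538 in TBX6 positive and 0.497 in PAX3 positive nuclei. Among nuclei with only 1 marker FGF8 was 1.30 (1.13 to 1.48) with SOX2 only, 0.778 (0.694 to 0.870) with TBXT only, 0.400 (0.321 to 0.493) with TBX6 only and 0.0845 (0.0700 to 0.101) with PAX3 only. The 4 intervals did not overlap. FGF8 with TBXT only was 9.21 times the level with PAX3 only (7.43 to 11.5), and with SOX2 only 1.67 times the level with TBXT only (1.40 to 1.99). Accordingly the FGF17 UMIs per FGF8 UMI were 0.281 (0.219 to 0.357) with TBXT only, 1.76 (1.49 to 2.09) with SOX2 only and 2.53 (1.97 to 3.28) with TBX6 only, against 1.86 over all nuclei.

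The contrast between single-marker classes held when each nucleus was thinned to 5000 UMIs, which kept 3197 nuclei and left out 225. Of TBXT only nuclei 31.7% then held an FGF8 UMI (25.5 to 38.3) and 6.88% an FGF17 UMI. Of SOX2 only nuclei 36.1% held FGF8 (26.6 to 46.5) and 40.2% FGF17, and of TBX6 only nuclei 21.6% and 35.8%. PAX3 only nuclei, the lowest class, held FGF8 in 4.19% (2.98 to 5.71) and FGF17 in 4.30%, and unthinned in 9.25% and 9.04%. Free RNA in droplets could give UMIs at such shares, and no class was known to lack either gene. Of the 538 thinned nuclei with FGF8, 51.3% also held FGF17, against 12.8% of nuclei without FGF8. FGF17 was the more concentrated of the ligands with many UMIs, with 50% of its 6088 UMIs in 147 nuclei, whereas 50% of FGF8's 3273 UMIs lay in 186.

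**Figure D4:**
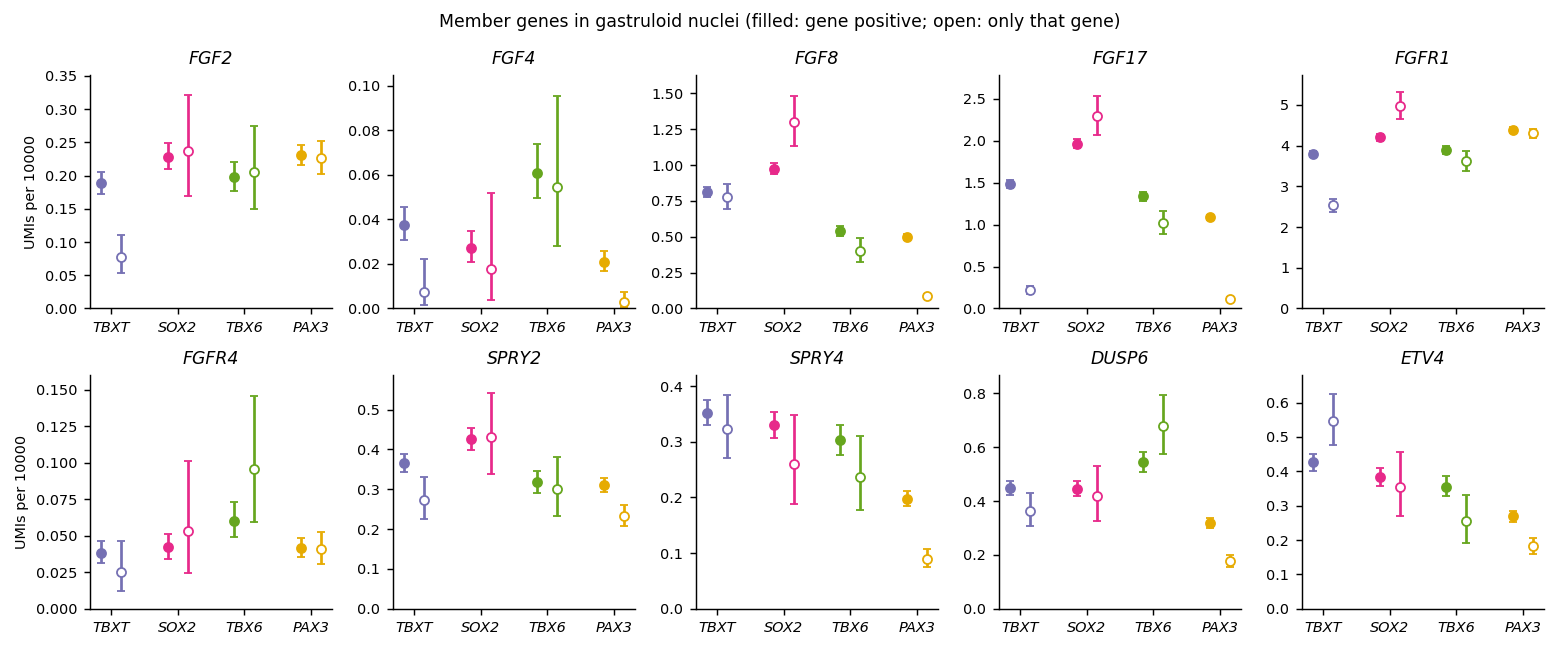
UMIs per 10000 UMIs of the 10 genes in gastruloid nuclei by marker gene (TBXT, SOX2, TBX6, PAX3), summed over nuclei of 1 preparation. Filled points are nuclei positive for the marker, open points nuclei with that marker alone of the 4, and bars are exact Poisson 95% intervals. With TBXT alone FGF17 stands at 0.218 and FGF8 at 0.778, and with SOX2 alone at 2.29 and 1.30.

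FGF4 and FGF2 were sparse in nuclei. FGF4 had 140 UMIs in 87 nuclei in all, and was at 0.0546 per 10000 with TBX6 only (12 UMIs), with 3 UMIs each in TBXT only and SOX2 only nuclei and 4 in PAX3 only nuclei. Of the 30 thinned nuclei that held FGF4, 23 also held FGF17. FGF2 stood at 0.236 with SOX2 only, 0.226 with PAX3 only, 0.205 with TBX6 only and 0.0778 with TBXT only. The last was 0.344 times the PAX3 only level (0.230 to 0.498), while SOX2 only and PAX3 only nuclei differed by less than counting error, at a ratio of 1.04 (0.732 to 1.45).

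Of the receptors, FGFR1 was found in 91.7% of nuclei and was lowest with TBXT only. It stood at 2.53 UMIs per 10000 there, 3.61 with TBX6 only, 4.30 with PAX3 only and 4.98 with SOX2 only. The TBXT only level was 0.588 times the PAX3 only level (0.550 to 0.629). FGFR4 was sparse at 259 UMIs in all, with its highest level, 0.0955 from 21 UMIs, in TBX6 only nuclei.

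The feedback and response members had their lowest values of the 4 single-marker classes with PAX3 only, and differed in where they were highest. SPRY4 stood at 0.324 UMIs per 10000 with TBXT only against 0.0896 with PAX3 only, a ratio of 3.62 (2.81 to 4.66), and ETV4 at 0.547 against 0.181, a ratio of 3.02 (2.51 to 3.63). Both were highest among these 4 classes with TBXT only, SPRY4 without standing clear of SOX2 only at 0.260. DUSP6 was highest with TBX6 only, at 0.678 (0.573 to 0.796), 3.83 times the PAX3 only level (3.10 to 4.71). SPRY2 was highest with SOX2 only at 0.431, against 0.233 with PAX3 only, but its levels with TBXT only and TBX6 only were not clear of PAX3 only, at ratios of 1.18 (0.937 to 1.46) and 1.29 (0.974 to 1.68). After thinning, SPRY4 was found in 14.7% of TBXT only and 4.19% of PAX3 only nuclei, and ETV4 in 22.5% and 7.61%. DUSP6 was found in 26.9% of TBX6 only nuclei and 7.50% of PAX3 only nuclei. Of thinned nuclei with FGF17, 28.7% held DUSP6 against 11.9% of nuclei without, and 18.96% held SPRY4 against 7.52%.

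Of the other FGF ligands, 6 of 14 had at least 100 UMIs in nuclei, and 4 of them were highest with TBX6 only. These were FGF18 at 1.41, FGF10 at 0.964, FGF9 at 0.773 and FGF3 at 0.241 UMIs per 10000, whereas FGF19 was highest with SOX2 only at 0.337. Of 9 other response genes with that many UMIs, 4 were highest with TBXT only, among them CCND1 at 2.16 against 0.410 with PAX3 only and IER3 at 0.630 against 0.029. The relay genes were spread over the classes, with 3 of 16 highest with TBXT only, 2 with SOX2 only, 5 with TBX6 only and 6 with PAX3 only. Of 7 other feedback inhibitors 3 were highest with SOX2 only, among them IL17RD at 1.21 against 0.653 with PAX3 only.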

How the data were processed

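RNA-seq was measured in 12 bulk libraries, and RNA and ATAC in 1 preparation of gastruloid nuclei. Bulk tables hold raw read counts per gene, deposited by the authors after HISAT2 alignment to hg19 and featureCounts on uniquely mapped reads. The nucleus table holds UMI counts per nucleus and the peak list positions only, both deposited by the authors from Cell Ranger on hg38.

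The test was that of edgeR 4.0.16 in R 4.3.3, quasi-likelihood with TMM and Benjamini-Hochberg adjustment, run within each pair of groups, over genes with at least 3 reads in 1 library. Called genes had an adjusted p under 0.05 and a fold over 2. Each SE was the absolute log2 fold change divided by the root of the test's F statistic, which is unstable for fold changes near 0. Filters, TMM and thresholds follow the study, which used limma voom. Depth was 11583063 to 37152434 reads in genes. Alternatives were DESeq2 1.42.0, limma 3.58.1 voom, RLE size factors, other filters and sample sets, counts without mitochondrial genes, no fold limit, replicate blocks and leaving out each library. The test was checked on simulated data. In nuclei, UMIs were summed per class with Python 3.11.15 and scipy 1.17.1, and scanpy 1.11.5 marked 70 nuclei (2.05%) as doublets with Scrublet, which were kept.

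The text names the 10 members, of each pathway list the 3 called genes with the widest change, and the 3 genes most like each ligand. A few values that the rule would name are not reported here. Genes of the nucleus lists and cell type markers were named after their values were seen. The members and lists were chosen with earlier results of these data known. Same-numbered libraries did not deviate together throughout, with correlations of 0.032 and 0.040 for endoderm against hESC, -0.033 to 0.011 for CRISPRi in endoderm, 0.131 and 0.159 for foregut against endoderm and -0.196 for CRISPRi in foregut, so the numbers were not taken to pair them.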

Additional observations from a re-analysis of the deposited data

Results flagged for a closer look

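One gene of the pathway lists outside the 10 members, FGF19, passed the test for a difference between foregut and endoderm in its response to LTR5 CRISPRi. FGF19, a ligand of the endocrine branch of the family, had 24.8, 15.7 and 14.8 CPM in endoderm without sgRNA and 17.3, 21.2 and 8.15 CPM with LTR5 CRISPRi. In foregut it had 1.27 and 0.821 CPM in control and no read in either CRISPRi library. The interaction had an adjusted p of 0.0422 (edgeR's quasi-likelihood test with Benjamini-Hochberg adjustment). The groups overlapped in endoderm and not in foregut, where all values were low. The fitted size depends on a prior count, since one group held no read. The call was kept by DESeq2 (adjusted p 0.00379) and lost with limma voom (0.0953), with filterByExpr (0.0679), with the replicate block (0.0669) and in 8 of 10 fits that each left out 1 library, where the adjusted p ran from 0.0332 to 0.137. It was kept only without endoderm CRISPRi replicate 3 and without foregut CRISPRi replicate 1.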

How the results depend on the processing

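Of the members' fold changes recomputed under the alternatives, 703 kept their direction and their side of the threshold, 9 passed it newly, 2 lost it and 20 changed sign. Without a fold limit 9 members passed in endoderm against hESC. In that comparison 9 members and 9599 of the 20818 genes tested had an unadjusted p under 0.05 (edgeR). For LTR5 CRISPRi in endoderm the genes called numbered 7, 53 with DESeq2, 186 with a filter of 1 read, 1 with voom, with filterByExpr and with all 12 libraries in 1 fit, and 1 to 9 without each library. For CRISPRi in foregut they numbered 33, 11 with voom, 1 with filterByExpr, 204 with all 12 libraries and 16 to 527 without each library, where 0 to 1 members were called. For the difference between the stages they numbered 44, 229 with DESeq2, which called 1 member, 0 with filterByExpr, 139 with a filter of 1 read, 86 with all 12 libraries and 0 to 805 without each library, with 0 to 1 members. The cause of these shifts was not tested beyond the fewer genes or libraries that some settings hold.

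With the replicate number as a block, 19 genes were called for CRISPRi in foregut and 16 for the difference between the stages, and no member's call changed in any comparison. Crossed pairing in foregut, added after seeing the data, gave 74 genes and no member. Sign changes concerned small or sparse effects. The interaction of ETV4, -0.03, became 8.51e-05 with filterByExpr and 0.0038 with all 12 libraries, and ranged from -0.35 to 0.26 without each library. Without each library the log2 fold changes for CRISPRi in endoderm ranged from -0.78 to 0.20 for FGF2, -0.26 to 0.15 for FGF4, -0.10 to 0.10 for FGF17 and -0.18 to 0.12 for SPRY4. In foregut they ranged from -4.38 to 6.22 for FGF17 and -0.12 to 0.83 for DUSP6, and the interactions from -0.14 to 0.30 for FGF4, -0.45 to 6.24 for FGF8 and -3.75 to 5.90 for FGF17.

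In nuclei, 2 members were highest in TBXT positive, 3 in SOX2 positive, 3 in TBX6 positive and 2 in PAX3 positive nuclei. In PAX3 positive nuclei the number was 1 with at least 2 UMIs of the marker gene. With nuclei of 1 marker only, and with the marker read in thinned counts, a choice made after seeing the data, it was 5 in SOX2 and 0 in PAX3 positive nuclei. Of 40 levels, 27, 32 and 25 moved beyond counting error under these 3 settings, 33 without mitochondrial UMIs, by ratios of 1.19 to 1.20, and 0 without doublets. Depth limits FGF4 and FGFR4 in nuclei and FGF4, FGF8 and FGF17 in foregut, where 3 reads equal 0.0770 to 0.131 CPM.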
